A study of Mus musculus with 8 samples.

Results

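The 8 genes described here encode enzymes of steroid and xenobiotic metabolism in mouse epidermis: Cyp1b1, Akr1c18, Cbr2, Aldh3a1, Acsl4, Gstm1, Gsto1 and Gsta4. They were taken by symbol from the 16214 genes of the bulk tables and the 18836 genes of the single-cell plates. The genes were chosen by measured values of the same data, since Cyp1b1 and Akr1c18 were among the largest falls in sorted EGFP+ cells and Cbr2 marked wells of basal interfollicular epidermis (IFE). Those values are therefore given as a description, with no test. All 8 genes were listed in the bulk tables. In the 1109 single-cell wells used, their summed transcripts ranged from 28.0 for Gsta4 to 1466 for Aldh3a1.

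Skin is exposed to lipophilic chemicals, and it also makes and inactivates steroids, retinoids and lipid mediators. Phase I enzymes such as cytochromes P450, aldehyde dehydrogenases and carbonyl or aldo-keto reductases oxidise or reduce these substrates, and phase II enzymes such as the glutathione S-transferases conjugate the products. Acyl-CoA synthetases activate fatty acids for lipid synthesis, which is prominent in the sebaceous gland and the cornifying layers.

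All samples came from adult mice that carry an EGFP-IRES-CreERT2 cassette in the Troy locus (Tnfrsf19), where it replaces the coding region, so that EGFP is driven by the Troy promoter and marks basal cells of the IFE and infundibulum. For the bulk experiment, epidermal cells of 2 Troy-EGFP-IRES-CreERT2 mice were each sorted into viable cells (DAPI-), ITGA6bright EGFP+ cells and ITGA6bright EGFP- cells, where bright ITGA6 marks attachment to the basement membrane, and were sequenced by CEL-Seq2, a 3′ counting method. For the single cells, SORT-seq placed cells in plates of 384 wells, from EGFP+ and EGFP- cells of 4 Troy-EGFP-IRES-CreERT2 mice and from tdTomato+ and tdTomato- cells of 2 traced mice, which carried Troy-EGFP-IRES-CreERT2 together with Rosa26-LSL-tdTomato and were given tamoxifen and traced for a week. The traced mice were homozygous for both alleles, and the sort gate of a single well was not used here. Skin was in telogen, the resting phase of the hair cycle. The 6 plates share well numbers by design, which are not shared cells.

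The 6 bulk libraries held 157537 to 453005 counts, and Tnfrsf19 had 41 and 16 counts in EGFP+ cells against 3 and 6 in EGFP- cells. Of 2304 wells, 1109 held at least 1000 transcripts without spike-in and mitochondrial rows, 71 to 262 per plate, with plate medians of 1676 to 3267 transcripts. Wells were classed by marker panels that hold none of the 8 enzymes: 247 basal IFE-like, 126 committed IFE-like, 106 upper hair follicle (HF)-like, 224 lower HF-like, 71 T cell-like, 44 Langerhans cell-like, 3 melanocyte-like and 1 fibroblast-like well, 19 wells led by the sebocyte panel, 123 led by the study's panel of necrotic or non-epidermal cells, and 145 left unassigned. In each class the summed level of its own panel was the highest of all classes, with the basal IFE panel the least separated, at 33517 CPM (transcripts scaled to a total of 1000000) in its own class and 17053 CPM in lower HF-like wells. Troy-EGFP mouse 1 gave 41 of its 71 wells to the necrotic panel and entered no class test. The 19 sebocyte-panel wells rested on few markers: all 19 held Scd1 and 13 held Plin2, but only 5 held Scd3, 4 Far2, 2 Cidea and 1 Elovl3, so they are called by their panel and not by a cell type.

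The bases before the annotated start sites of 5 of the genes are shown because their transcripts took different patterns among the classes, described in turn after them. They are the 250 bases upstream, 5′ to 3′ on the gene's strand, from RefSeq on GRCm38.p6, in lower case, with capitals for the xenobiotic response element core GCGTG on either strand. The windows of Acsl4 and Cbr2 belong to start sites inside the gene spans given later, so that the former lies within the annotated gene and the latter overlaps its 5′ end by a few bases. Cyp1b1 (chr17:79715062-79715311, minus strand), Akr1c18 (chr13:4150647-4150896, minus strand), Cbr2 (chr11:120732022-120732271, minus strand), Acsl4 (chrX:142390536-142390785, minus strand) and Gstm1 (chr3:108017974-108018223, minus strand) read as follows.
Cyp1b1: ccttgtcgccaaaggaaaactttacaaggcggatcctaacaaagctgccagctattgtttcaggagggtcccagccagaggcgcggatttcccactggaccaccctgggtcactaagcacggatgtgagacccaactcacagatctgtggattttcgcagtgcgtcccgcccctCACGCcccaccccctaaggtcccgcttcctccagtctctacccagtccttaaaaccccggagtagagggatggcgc
Akr1c18: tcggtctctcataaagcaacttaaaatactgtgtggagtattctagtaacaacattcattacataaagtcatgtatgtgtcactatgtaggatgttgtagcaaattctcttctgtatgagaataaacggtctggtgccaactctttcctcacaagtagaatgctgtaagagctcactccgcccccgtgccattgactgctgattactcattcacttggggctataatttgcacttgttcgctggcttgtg
Cbr2: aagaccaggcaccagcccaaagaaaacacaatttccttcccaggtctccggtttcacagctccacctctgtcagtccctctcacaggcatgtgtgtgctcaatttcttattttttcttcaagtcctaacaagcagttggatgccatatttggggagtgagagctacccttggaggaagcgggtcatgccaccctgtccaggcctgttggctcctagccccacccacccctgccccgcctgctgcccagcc
Acsl4: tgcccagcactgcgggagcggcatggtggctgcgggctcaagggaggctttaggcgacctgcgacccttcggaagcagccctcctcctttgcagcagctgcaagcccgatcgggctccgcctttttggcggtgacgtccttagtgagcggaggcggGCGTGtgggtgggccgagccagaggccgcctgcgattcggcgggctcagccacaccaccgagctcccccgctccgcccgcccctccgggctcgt
Gstm1: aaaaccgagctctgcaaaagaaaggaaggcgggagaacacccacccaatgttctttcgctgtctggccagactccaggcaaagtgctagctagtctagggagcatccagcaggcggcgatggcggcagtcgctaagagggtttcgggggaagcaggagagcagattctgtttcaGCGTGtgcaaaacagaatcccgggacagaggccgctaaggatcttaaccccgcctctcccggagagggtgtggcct
The core stood at -76 in Cyp1b1, where it lies on the reverse strand and reads CACGC, at -94 in Acsl4 and at -76 in Gstm1. It was in none of the windows of Akr1c18, Cbr2 and Gsto1, searched from 250 bases before to 50 after the start, and 32.4% of the 32851 promoter windows of the same 300 bases in the annotation held it. The antioxidant response element core TGACNNNGC was in none of the windows of the 6 genes that had one, against 12.4% of all windows. GC content ran from 41.6% in Akr1c18 to 70.8% in Acsl4. Aldh3a1 and Gsta4 had no window in the table.

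In the bulk libraries the clearest pattern was in the first pair of genes, which were at or near 0 in both EGFP+ libraries and present in both EGFP- libraries. Cyp1b1 (chr17:79706940-79715061), a cytochrome P450 that oxidises polycyclic aromatic hydrocarbons and oestradiol and is a known target of the aryl hydrocarbon receptor, had 0 and 0 counts in EGFP+ cells, 21 and 22 in EGFP- cells and 6 and 11 in viable cells of mice 1 and 2. Its level was 159 and 128 CPM in EGFP- cells and 21.4 and 24.8 CPM in viable cells, scaled by the trimmed mean of M values (TMM). With a floor of 3 counts over both EGFP+ libraries, it was at least 28.1-fold higher in EGFP- than in EGFP+ cells and at least 4.65-fold higher in viable than in EGFP+ cells.

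Akr1c18 (chr13:4132615-4150646), the 20-alpha-hydroxysteroid dehydrogenase that inactivates progesterone, had 0 and 1 counts in EGFP+ cells, 15 and 21 in EGFP- cells and 13 and 9 in viable cells. The summed CPM ratio of EGFP- to EGFP+ cells was 70.5 and that of viable to EGFP+ cells 18.1, as a description. Both ratios rest on 1 count in EGFP+ cells, so their size is very uncertain. As for Cyp1b1, no library of EGFP+ cells reached the level of a library of another population. In EGFP- cells Akr1c18 stood at 113 and 122 CPM, above the 46.3 and 20.3 CPM of viable cells.

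**Figure D1:**
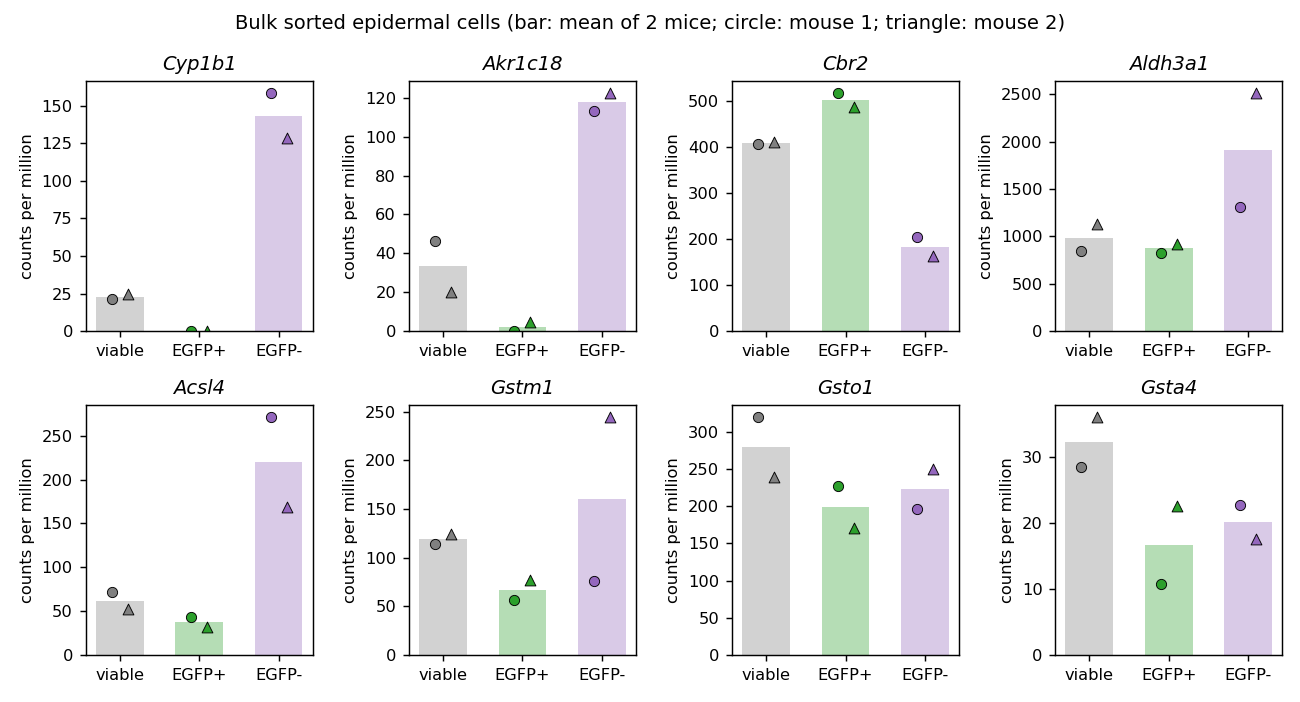
Level of each of the 8 enzymes in the 6 bulk libraries, in CPM scaled by TMM, by sorted population. Bars are means of 2 mice, circles mouse 1 and triangles mouse 2, and each panel has its own axis from 0. Cyp1b1 and Akr1c18 are at or near 0 in EGFP+ cells, Cbr2 is highest there, at 517 and 487 CPM, and Acsl4 is highest in EGFP- cells, at 272 and 169 CPM.

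Cbr2 went the other way. Cbr2 (chr11:120729485-120732025), a carbonyl reductase of the short-chain dehydrogenase family, was at 517 and 487 CPM in EGFP+ cells, 204 and 163 CPM in EGFP- cells and 406 and 410 CPM in viable cells, so that the 3 populations did not overlap. The log2 fold change of EGFP+ against EGFP- cells was 1.46. Comparisons with viable cells reuse the EGFP+ and EGFP- libraries behind the choice of genes, so they are not independent of it. Against viable cells the log2 fold change was -1.16 ± 0.30 (SE) in EGFP- cells (edgeR adjusted p = 0.0507, or 0.016 with the mouse as a block). It ranged from -1.34 to -1.05 over the alternatives. In EGFP+ cells the log2 fold change was 0.30 ± 0.26 (adjusted p = 0.951).

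The other phase I member, Aldh3a1 (chr11:61208510-61218418), which oxidises medium-chain and aromatic aldehydes, was found in every population. It had 841 and 1127 CPM in viable cells, 828 and 920 CPM in EGFP+ cells and 1306 and 2513 CPM in EGFP- cells. Both EGFP- libraries lay above the other 4 libraries, and the log2 fold change was -1.13 for EGFP+ against EGFP- cells, as a description. It was 0.96 ± 0.33 for EGFP- against viable cells (adjusted p = 0.158, with 8.36e-07 to 0.697 over the alternatives, the lowest without the EGFP- library of mouse 1), and -0.18 ± 0.33 for EGFP+ against viable cells (adjusted p = 0.995).

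Acsl4 (chrX:142317993-142390802), which activates long polyunsaturated fatty acids such as arachidonic acid, was at 272 and 169 CPM in EGFP- cells, 71.3 and 51.8 CPM in viable cells and 42.9 and 31.6 CPM in EGFP+ cells. The order EGFP-, viable, EGFP+ held in both mice, with no overlap between populations. Viable cells include cells of both other populations, so they are not a separate group in this order. EGFP- cells exceeded viable cells by a log2 fold change of 1.84 ± 0.35 (adjusted p = 0.00714), which lost its call without the viable library of mouse 2 (1.58, adjusted p = 0.150) and kept it in the other 8 alternatives that gave a value. EGFP+ against viable cells gave -0.64 ± 0.42 (adjusted p = 0.879), and EGFP+ against EGFP- cells -2.48, as a description.

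The glutathione S-transferases were less separated. Gstm1 (chr3:108012250-108017973), of the mu class, had 56.3 and 76.7 CPM in EGFP+ cells, 75.5 and 245 CPM in EGFP- cells and 114 and 124 CPM in viable cells, and the EGFP- libraries enclosed the viable libraries. Gsto1 (chr19:47854973-47864790), of the omega class, which also acts as a thioltransferase, had 321 and 239 CPM in viable, 228 and 171 CPM in EGFP+ and 196 and 251 CPM in EGFP- cells, where the EGFP- libraries overlapped both other populations and viable lay above EGFP+ cells. Gsta4 (chr9:78191966-78209349), of the alpha class, which conjugates aldehydes from lipid peroxidation, had 3 to 16 counts per library and was left out of the fits given here by the filter on low counts. None of the alternatives that kept Gsta4, in bulk or in wells, called it (lowest adjusted p = 0.288, edgeR). For EGFP+ against viable cells the log2 fold change of Gstm1 was -0.88 ± 0.41 (adjusted p = 0.699) and that of Gsto1 -0.46 ± 0.29 (adjusted p = 0.879). For EGFP- against viable cells Gstm1 gave 0.48 ± 0.39 (adjusted p = 0.660), or -0.71 without the EGFP- library of mouse 2, and Gsto1 -0.30 ± 0.31 (adjusted p = 0.744).

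Of the 5 enzymes with a test against viable cells (Cbr2, Aldh3a1, Acsl4, Gstm1 and Gsto1), 1 was called in EGFP- cells, where 1.78% of 4653 genes were called, and 0 in EGFP+ cells, where 0.473% were. In EGFP+ cells Gstm1 alone had an unadjusted p below 0.05 (0.0422), and DESeq2 called 0 of them too. For EGFP+ against EGFP- cells, which chose the genes, 7.05% of genes were called and nothing is read from the members. These 3 comparisons share libraries, with 2 mice behind each, and those against viable cells reuse libraries behind the choice of genes. Viable cells are all DAPI- cells and include both other populations, so tests against them set a part against the whole. In bulk RNA, fewer cells of a type and less RNA per cell cannot be told apart.

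Markers of other cells moved with these values. The 5 listed upper HF markers summed to 485 and 564 CPM in EGFP+ cells, 7338 and 3621 CPM in EGFP- cells and 3000 and 2554 CPM in viable cells, while Plet1 was not listed. The 6 lower HF markers summed to 745 and 898 CPM in EGFP+ cells and 2144 and 4012 CPM in EGFP- cells. Most of this lay in Sox9, at 622 and 794 CPM against 1804 and 3638 CPM, which upper HF-like wells also held (694 CPM). Cd34, the marker of bulge cells, had 0 counts in both EGFP- libraries and Lgr5 had 0 in both EGFP+ libraries. Langerhans cell markers summed to 105 and 99.2 CPM in EGFP+ cells and 1329 and 1318 CPM in EGFP- cells. The 6 sebocyte markers summed to 204 and 140 CPM against 430 and 286 CPM, with Elovl3 at 0 in 3 of the 6 libraries. Most of the sebocyte difference lay in Plin2 (53.6 and 45.1 CPM against 242 and 152 CPM). Scd1 and Scd3 overlapped, and Far2 was lower in EGFP- cells (8.04 and 9.02 CPM against 7.55 and 0 CPM). Among the T cell markers, Thy1 gave most of the sum and was at 319 and 212 CPM in EGFP+ cells and 219 and 93.3 CPM in EGFP- cells, while Cd3e had 1 and 0 counts against 4 and 6, and Cd3g had 0 and 0 against 7 and 4. The sums of melanocyte markers (10.7 and 13.5 CPM against 136 and 99.1 CPM), fibroblast markers (5.36 and 18.0 CPM against 90.6 and 87.5 CPM) and the study's necrotic panel (8411 and 9070 CPM against 13717 and 19423 CPM) were also lower in EGFP+ than in EGFP- cells. Most of the melanocyte difference lay in Mitf (5.36 and 13.5 CPM against 113 and 93.3 CPM), with Tyrp1 and Pmel at 0 in both populations. Most of the necrotic panel lay in Kcnq1ot1 (7658 and 8218 CPM against 12947 and 18350 CPM), while Mir1950 overlapped. Those of the basal IFE panel (24547 and 23688 CPM against 14027 and 15061 CPM) and the committed IFE panel (3526 and 3437 CPM against 1631 and 1160 CPM) were higher. The part of these cells in the values of the enzymes was not tested.

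Other genes of the pathways moved in both directions between EGFP+ and EGFP- cells, where 7.05% of 4653 genes were called. Of 43 steroid and retinoid enzymes, 9 were tested, 1 rose (Hsd3b7) and 1 fell (Stard5, a steroid-binding transport protein, by 1.94 on the log2 scale). Of 44 phase I enzymes, 14 were tested and 2 fell, Aldh3a2 and Adh7. Of 40 glutathione and phase II enzymes, 9 were tested, 1 rose and 3 fell. Those that fell were Gstm5, Gclm, a subunit of the first enzyme of glutathione synthesis, and Mgst1, by 2.45, 2.40 and 2.38 on the log2 scale. Gstm5 stood at 102 and 153 CPM in EGFP+ cells and 861 and 513 CPM in EGFP- cells, with no overlap.

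Of 18 acyl-CoA synthetases, 4 were tested and 1 rose, Acsl1 by a log2 fold change of 1.73, and of 24 receptors and regulators 11 were tested and 1 fell, Vdr by 1.06. The calls of Stard5, Gstm5 and Gclm held in all 10 alternatives, 6 of which leave a population with 1 library, whose spread is then taken to be that of the other populations, and those of the other 6 genes named here were lost in 2 to 8 of them, DESeq2 and the leaving out of single EGFP+ or EGFP- libraries among them. The list medians of the log2 fold change lay between -0.49 for glutathione and phase II enzymes and 0.62 for acyl-CoA synthetases, against -0.04 over all genes tested. Against viable cells, Stard5 and Gstm5 rose in EGFP- cells by log2 fold changes of 1.41 and 1.35, calls that were both lost without the viable library of mouse 1 and again without that of mouse 2. In EGFP+ against viable cells 0 of the 47 listed genes tested were called by edgeR or DESeq2, and 3 of them, in the glutathione list, had an unadjusted p below 0.05.

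In the single cells several of the enzymes leant to different compartments of the epidermis. Cyp1b1 transcripts lay mostly in lower HF-like wells, Acsl4 and Gstm1 transcripts leant to upper HF-like wells, Cbr2 to basal IFE-like wells, and Akr1c18 to the 19 sebocyte-panel wells. The largest share of each gene was 53.3% for Cyp1b1 in lower HF-like wells, 48.9% for Acsl4 and 33.6% for Gstm1 in upper HF-like wells, 58.2% for Cbr2 and 28.8% for Gsto1 in basal IFE-like wells, 83.4% for Akr1c18 in sebocyte-panel wells and 37.8% for Aldh3a1 in unassigned wells. Of all kept wells, these classes were 20.2%, 9.56%, 22.3%, 1.71% and 13.1% in the order named. The share of Gsto1 was thus near that of its class.

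**Figure D2:**
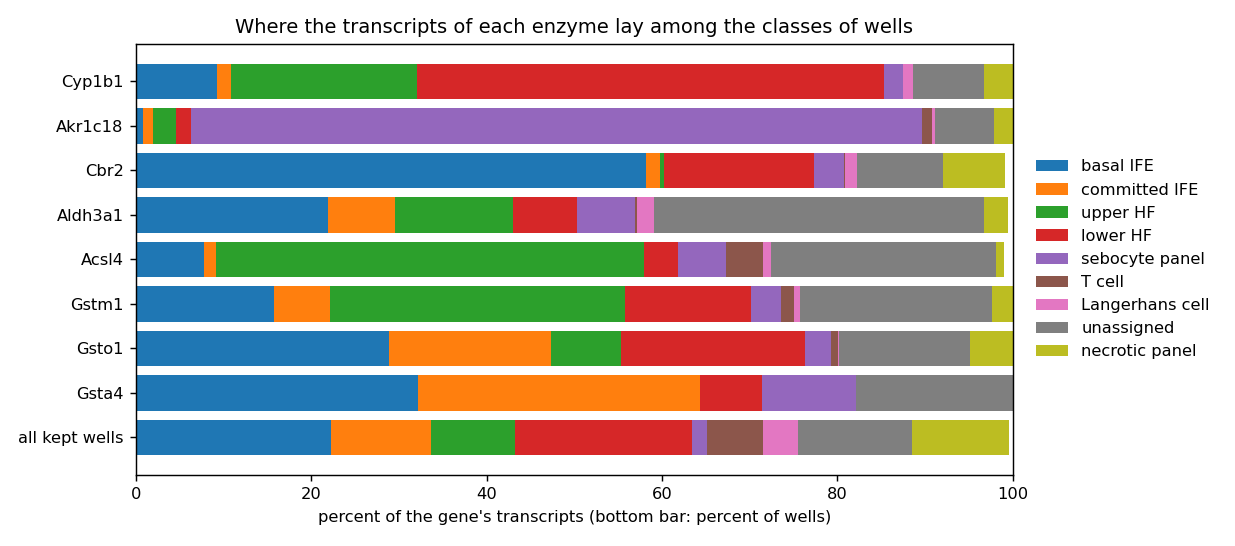
Percent of the transcripts of each enzyme that lay in each class of wells, for the 1109 wells of 6 mice together, with the percent of wells in each class in the bottom bar. The 4 wells of the melanocyte and fibroblast panels are not drawn. The 19 sebocyte-panel wells, 1.71% of wells, hold 83.4% of the Akr1c18 transcripts, and lower HF-like wells, 20.2% of wells, hold 53.3% of those of Cyp1b1.

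Cyp1b1 was found in 91 wells with 184 transcripts, of which the highest well held 18.0. Summed per mouse, with at least 10 wells per sum, it stood at 26.1, 80.9, 191, 196 and 309 CPM in lower HF-like wells of 5 mice and at 41.9, 59.9, 77.4, 84.4 and 166 CPM in upper HF-like wells. In basal IFE-like wells the 5 mice ranged from 0 to 37.3 CPM, with a median of 11.4, and in committed IFE-like wells 4 mice ranged from 0 to 15.1 CPM. Each mouse was higher in both follicle classes than in its own basal IFE-like wells. The log2 fold change against basal IFE-like wells was 3.33 ± 0.54 in lower HF-like wells (adjusted p = 3.20e-05) and 2.48 ± 0.58 in upper HF-like wells (adjusted p = 0.00304).

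The first of these calls held in all 13 alternatives, and the second in all but that without traced mouse 2 (2.15, adjusted p = 0.0788). In lower HF-like wells the range of the mice, 26.1 to 309 CPM, enclosed that of upper HF-like wells, so the order of the 2 follicle classes is within their spread. No transcript was found in the 71 T cell-like wells, where 3 transcripts would stand for 19.9 CPM. With each well thinned to 1000 transcripts, 10.8% of lower HF-like wells (95% exact binomial interval 7.02% to 15.6%), 9.43% of upper HF-like wells (4.62% to 16.7%) and 0.81% of basal IFE-like wells (0.0982% to 2.89%) held Cyp1b1. Unthinned, these shares were 16.5%, 22.6% and 3.24%, at median depths of 2490, 3190 and 3401 transcripts, and 0 of 71 T cell-like wells held it at a median of 1815 transcripts (exact binomial upper bound 5.06%). Intervals and floors cover counting error only.

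**Figure D3:**
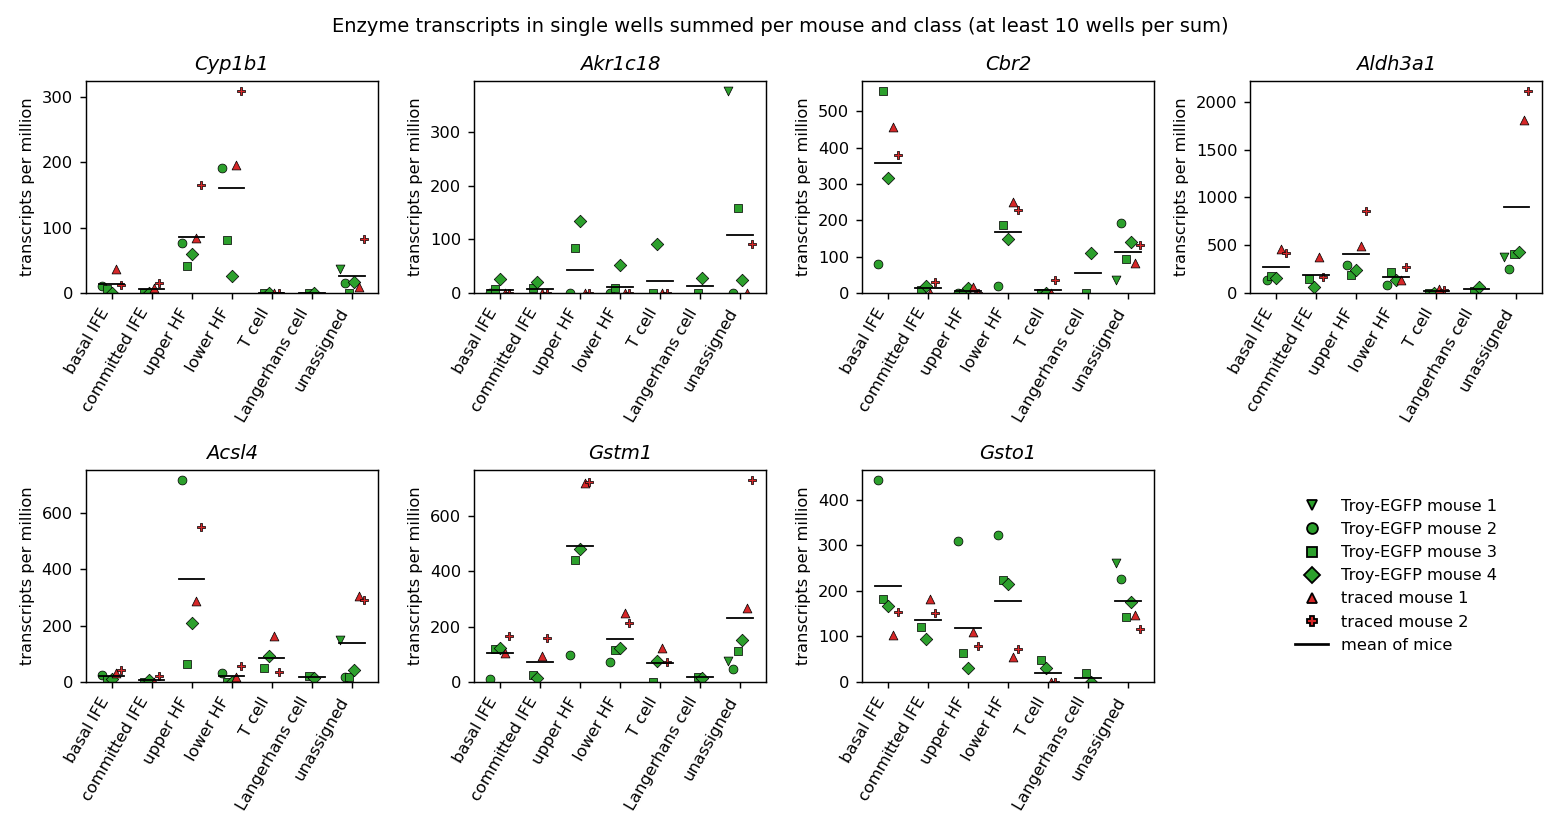
Level of 7 enzymes in classes of wells, in CPM of the sum of each mouse with at least 10 wells of the class. Green symbols are Troy-EGFP mice and red symbols traced mice, the line is their mean, and axes start at 0. Cyp1b1 is highest in follicle classes, Acsl4 and Gstm1 in upper HF wells, Cbr2 in basal IFE and lower HF wells, and Aldh3a1 in unassigned wells of the traced mice, at 1805 and 2110 CPM.

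Acsl4 and Gstm1 were both higher in upper HF-like wells. Acsl4 stood there at 62.8, 210, 287, 549 and 717 CPM in 5 mice, above the 7.03 to 41.7 CPM of basal IFE-like wells with no overlap, and the log2 fold change was 3.92 ± 0.54 (adjusted p = 1.45e-06, at most 0.00546 in 14 alternatives). Unlike Cyp1b1, it did not reach a call in lower HF-like wells, where the mice ranged from 0 to 56.9 CPM (log2 fold change -0.26 ± 0.71, adjusted p = 0.900). Gstm1 stood at 96.8, 440, 480, 717 and 724 CPM in upper HF-like wells and at 11.4 to 167 CPM in basal IFE-like wells, with Troy-EGFP mouse 2 the lowest in both. Its log2 fold change was 2.14 ± 0.40 (adjusted p = 0.000187), higher in each of 5 mice, which missed the threshold with the Troy-EGFP mice alone (1.92, adjusted p = 0.0830). In lower HF-like wells Gstm1 was at 70.4 to 250 CPM (0.48 ± 0.41, adjusted p = 0.572).

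Of 106 upper HF-like wells, 47 held Acsl4, 60 held Gstm1 and 31 held both, as a description. After thinning, 30.2% of upper HF-like wells (21.7% to 39.9%) held Acsl4 and 29.2% (20.8% to 38.9%) held Gstm1, against 1.62% and 12.1% of basal IFE-like wells and 8.45% and 2.82% of T cell-like wells. Unthinned, upper HF-like wells held them in 44.3% and 56.6%, and T cell-like wells in 16.9% and 8.45%. The 4 T cell sums of Acsl4 were at 35.1 to 164 CPM (log2 fold change against basal IFE-like wells 1.43 ± 0.76, adjusted p = 0.163, or 0.0348 with the mouse as a block).

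Upper HF-like wells differed in 3 of the 6 enzymes tested there, with a background of 13.0% of 5307 genes called, and lower HF-like wells in 1 of 6, with a background of 11.8%. The enzymes tested were Cyp1b1, Akr1c18, Aldh3a1, Acsl4, Gstm1 and Gsto1. In committed IFE-like wells 0 of 6 were called, with a background of 8.23%, 0 had an unadjusted p below 0.05 and DESeq2 called 0. Acsl4 and Cyp1b1 were at 0 to 22.7 CPM and 0 to 15.1 CPM there, and Gstm1 at 15.8 to 159 CPM (-0.80 ± 0.46, adjusted p = 0.392). These comparisons share the basal IFE-like sums. Of 20 edgeR tests of a difference between the traced and the Troy-EGFP mice in the class folds of 5 enzymes (Cyp1b1, Aldh3a1, Acsl4, Gstm1 and Gsto1), 0 were called and 0 had an unadjusted p below 0.05.

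**Figure D4:**
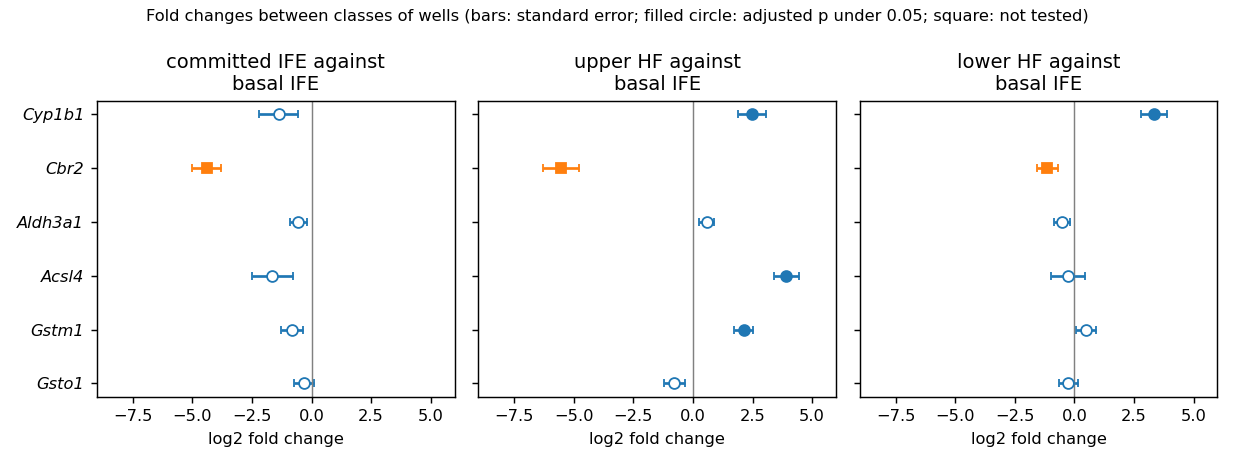
Log2 fold change of 6 enzymes against basal IFE wells in 3 classes of wells, with bars of 1 standard error from the edgeR fit over 4 or 5 mice. Filled circles have an adjusted p under 0.05, open circles do not, and orange squares mark Cbr2, which was not tested. The filled circles are Cyp1b1, Acsl4 and Gstm1 in upper HF wells and Cyp1b1 in lower HF wells. The points of Cyp1b1 in committed IFE wells and of Cbr2 in upper HF wells rest on 3 transcripts in the class.

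Among the keratinocyte classes Cbr2 was highest in basal IFE-like wells, as its choice implies. It had 619 transcripts in 231 wells, at 79.7, 318, 379, 457 and 555 CPM in basal IFE-like wells, with Troy-EGFP mouse 2 the lowest, and at 20.1, 150, 189, 228 and 250 CPM in lower HF-like wells. Each of the 5 mice was lower in lower HF-like than in basal IFE-like wells (log2 fold change -1.14). Committed IFE-like wells ranged from 0 to 30.2 CPM and upper HF-like wells from 0 to 16.9 CPM, both without overlap with basal IFE-like wells. Sebocyte-panel wells of Troy-EGFP mice 3 and 4 were at 254 and 214 CPM. Of the 19 sebocyte-panel wells, 9 held Cbr2 (47.4%, or 5.26% after thinning). Only 3 transcripts were found in 106 upper HF-like wells, a ratio of basal to upper HF of 51.6, as a description whose size is uncertain at this count. After thinning, 25.1% of basal IFE-like, 13.0% of lower HF-like, 1.89% of upper HF-like and 0 of 71 T cell-like wells held Cbr2, and unthinned 47.4%, 24.1%, 2.83% and 1.41%. Part of the 3′ ends of Cbr2 (22.6% of words of 50 bases) is shared with Gm11771, and of Gstm1 (23.0%) with Gm8834, Gstm2-ps1 and Gstm3, so their counts are less certain.

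Akr1c18 had the most concentrated transcripts of the set. Of its 512 transcripts, 427 lay in 13 of the 19 sebocyte-panel wells, and the 10 highest wells held 82.8% of the total. In the sebocyte-panel wells of Troy-EGFP mouse 3, 4 of 6 wells held 7.01 to 51.3 transcripts, with a median over the 6 wells of 18.1. In Troy-EGFP mouse 4, 7 of 10 wells held 4.00 to 91.0, with a median over the 10 wells of 26.1, and Akr1c18 took up to 1.04% of all transcripts of a well. The single such wells of traced mice 1 and 2 held 2.00 and 1.00 transcripts, and that of Troy-EGFP mouse 2 held 0. The labels code Troy-EGFP mice 3 and 4 with F and mice 1 and 2 with M, and the study used males alone for tracing. In the kept wells, mice 3 and 4 held 105 and 110 transcripts of Xist, which is expressed from the inactive X chromosome of females, and 1 and 0 transcripts of 4 Y-linked genes (Ddx3y, Eif2s3y, Kdm5d and Uty). The other 4 mice held 0 of Xist and 27.0 to 192 of the Y-linked genes. Both bulk mice held 42 to 212 counts of the Y-linked genes per library and at most 1 of Xist. Their EGFP- cells held Akr1c18 at 113 and 122 CPM. In the wells, sex and mouse cannot be told apart from the number of sebocyte-panel wells or from their Akr1c18, and the part of sex in any difference was not tested. Of the 13 wells with Akr1c18, 12 also held Plin2, a perilipin that coats lipid droplets. Plin2 is in the panel that classed these wells, with 2 panel genes required, so this overlap is shaped by the rule. Plin2 was also found in 107 wells outside the panel, and 8 of these held Akr1c18.

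**Figure D5:**
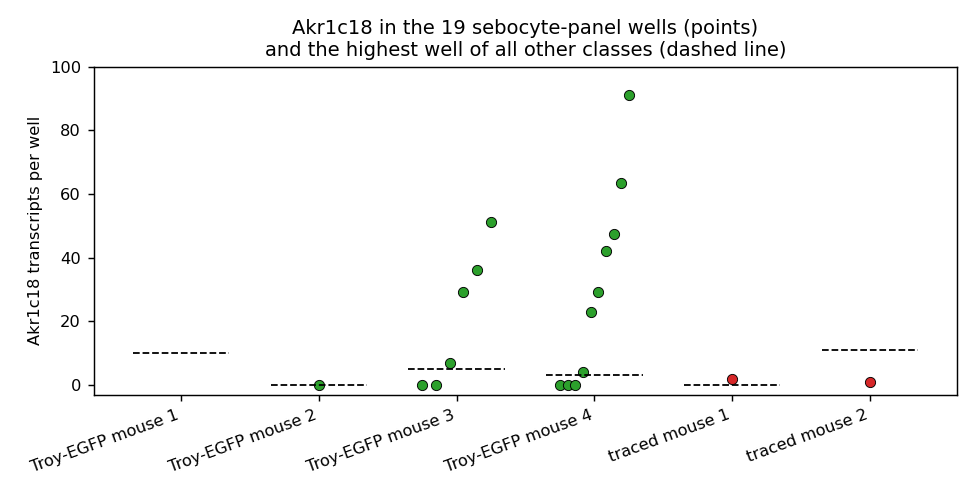
Akr1c18 transcripts in each of the 19 sebocyte-panel wells, as points by mouse, on a linear axis, with a dashed line at the highest well of all other classes in that mouse. Wells of Troy-EGFP mice 3 and 4 reach 51.3 and 91.0 transcripts, and no well of another class in any mouse is above 11.0.

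Outside these wells Akr1c18 was sparse and came mostly from a single mouse. It was found in 34 of 252 wells of Troy-EGFP mouse 4 (13.5%), with at most 3.00 transcripts, in 9 of 212 of mouse 3 (4.25%), in 1 of 71 of mouse 1, in 1 of 199 of traced mouse 2 and in 0 of 128 and 0 of 228 of Troy-EGFP mouse 2 and traced mouse 1. In mouse 4 it stood at 91.1 CPM in T cell-like, 52.1 CPM in lower HF-like and 26.5 CPM in basal IFE-like wells. This mouse also had the most Akr1c18 in sebocyte-panel wells, 300.1 of the 427 transcripts. Whether such transcripts came from the cells of those wells was not tested. The fold change of upper HF-like against basal IFE-like wells was 2.35 ± 1.10 on the log2 scale (adjusted p = 0.187), from 0, 0, 0, 83.7 and 135 CPM in 5 mice. In the 9 wells with more than 12 Akr1c18 transcripts, Akr1c19, Igfbp2, Ces1d and Oxtr were among the genes with the highest ratio to all kept wells after it, chosen after their values were seen. Akr1c19, another aldo-keto reductase, stood at 608 CPM there and 11.5 CPM over all wells.

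A comparison of sebocyte-panel with basal IFE-like wells was added after the data were seen, with sums of 6 and 10 wells from Troy-EGFP mice 3 and 4, and 2.01% of 4421 genes were called. Of the 5 enzymes tested there, Aldh3a1 and Acsl4 were called, by log2 fold changes of 1.93 ± 0.48 (adjusted p = 0.0182) and 2.96 ± 0.79 (adjusted p = 0.0343). Both calls were lost without mouse 3 or without mouse 4. Those fits leave a single sebocyte-panel sum, which is taken to vary like the other classes, as do the same alternatives for the genes named below. Cyp1b1, Gstm1 and Gsto1 gave adjusted p of 0.806, 0.409 and 0.858. Akr1c18 and Cbr2 were not tested there, and Akr1c18 stood at 4479 and 4591 CPM in the 2 mice. Of the listed genes tested, 1 of 13 steroid and retinoid enzymes rose, 1 of 16 phase I enzymes, 2 of 9 glutathione and phase II enzymes, 1 of 5 acyl-CoA synthetases and 0 of 9 receptors and regulators, and none fell. In the last list 1 had an unadjusted p below 0.05 and DESeq2 called 0. Mgst1 and Acsbg1 rose by log2 fold changes of 6.39 and 4.30, with calls kept in all 6 alternatives. Cbr1, a carbonyl reductase, and Gclc, the catalytic subunit of the first enzyme of glutathione synthesis, rose by 2.68 and 2.45, calls lost in 1 and 2 of 6 alternatives (highest adjusted p = 0.799 and 0.796). Akr1c19 had 38 transcripts against 1 in basal IFE-like wells, a ratio of 379 (95% counting interval 64.1 to 15378).

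Aldh3a1 was the most widely found enzyme, with 1466 transcripts in 363 wells. It stood at 137 to 466 CPM in basal IFE-like wells, 188 to 856 CPM in upper HF-like wells, 68.3 to 380 CPM in committed IFE-like wells and 80.5 to 276 CPM in lower HF-like wells, ranges that overlap. No keratinocyte class was called against basal IFE-like wells (adjusted p = 0.292 for upper HF-like, 0.446 for committed IFE-like and 0.390 for lower HF-like wells). Upper HF-like wells were higher than basal IFE-like wells in each of 5 mice, at 290, 188, 240, 498 and 856 CPM against 137, 176, 159, 466 and 421 CPM, a log2 fold change of 0.57 ± 0.33, or 0.59 with the mouse as a block (adjusted p = 0.0999). In T cell-like wells 3 transcripts were found in 71 wells, a ratio of basal to T cell of 17.3 (95% counting interval 5.87 to 84.4, edgeR adjusted p = 3.21e-06), a call kept in all 13 alternatives. Langerhans cell-like sums, from Troy-EGFP mice 3 and 4, were at 19.3 and 68.6 CPM (log2 fold change -1.93 ± 0.66, adjusted p = 0.0325), a call lost in 5 of 14 alternatives, among them those without Troy-EGFP mouse 3 (adjusted p = 0.347) or 4 (0.0758), where the remaining sum is taken to vary like the other classes. A further 22.0 Aldh3a1 transcripts lay in the 2 Langerhans cell-like wells of traced mouse 2, too few wells for a sum.

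Among sums of at least 10 wells, the highest Aldh3a1 lay in wells of the traced mice that no panel claimed. Unassigned wells stood at 375, 258, 410 and 433 CPM in Troy-EGFP mice 1 to 4 and at 1805 and 2110 CPM in traced mice 1 and 2. The sebocyte-panel wells of Troy-EGFP mice 3 and 4 were at 943 and 873 CPM, above the unassigned wells of the same mice, and the 2 Langerhans cell-like wells of traced mouse 2 were at 2830 CPM. All 19 unassigned wells with more than 10 Aldh3a1 transcripts were from traced mice, 9 and 10 of them. In these 19 wells the genes with the highest ratio to all kept wells after it were Lgals9, Vsnl1 and Tmem176a, chosen after their values were seen, with Lgals9 at 930 CPM against 114 CPM over all wells. The traced mice were also higher in basal IFE-like wells, at 466 and 421 CPM against 137, 176 and 159 CPM in Troy-EGFP mice 2, 3 and 4, a log2 fold change of 1.42 ± 0.33 (adjusted p = 0.126). The 5 such wells of Troy-EGFP mouse 1, too few for these sums, were above both traced mice, at 625 CPM from 14.0 transcripts, and with them the log2 fold change was 0.97 ± 0.50 (adjusted p = 0.395). In that comparison 0 of 3 enzymes tested were called (Aldh3a1, Gstm1 and Gsto1), with 1 at an unadjusted p below 0.05 and a background of 0.591% of 2875 genes. Aldh3a1 was called without the filter on low counts (adjusted p = 0.0234) and without Troy-EGFP mouse 2 (0.00267). DESeq2 called 0 of the 3. Genotype, tamoxifen and sort differ between the experiments and cannot be told apart. Sex differs in part. Troy-EGFP mice 1 and 2, at 625 CPM from 5 wells and at 137 CPM, held Y-linked transcripts as the traced mice did. Troy-EGFP mice 3 and 4 held Xist. The part of sex was not tested.

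Gsto1 was the most even enzyme over keratinocytes. It was found in 330 wells, never above 5.00 transcripts in a well, and its mice ranged from 102 to 444 CPM in basal IFE-like, 94.5 to 181 CPM in committed IFE-like, 54.8 to 322 CPM in lower HF-like and 30.0 to 310 CPM in upper HF-like wells. These ranges overlap, and the tests against basal IFE-like wells gave adjusted p of 0.811, 0.798 and 0.280. It was low in immune classes: 4 transcripts in 71 T cell-like wells, at 0 to 49.2 CPM (log2 fold change -3.57 ± 0.78, adjusted p = 0.000443), and 1 in 44 Langerhans cell-like wells, a ratio of basal to Langerhans of 23.2 (95% counting interval 4.10 to 920, adjusted p = 0.000980). Both calls held in all alternatives that gave a value. Gsto1 overlaps Cfap43 on the other strand.

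T cell-like and Langerhans cell-like wells differed from basal IFE-like wells in 2 of 6 enzymes each, Aldh3a1 and Gsto1, with backgrounds of 31.2% and 20.6% of genes called. In T cell-like wells 619 genes were called higher and 1036 lower, or 751 and 781 with the size factors of DESeq2, which move the median log2 fold change of all genes from -0.30 to -0.0028. The same change of scaling moved that median from -0.24 to -0.10 in Langerhans cell-like and from -0.25 to -0.12 in sebocyte-panel wells. Aldh3a1 and Gsto1 kept their direction and call under both scalings in both classes. Gstm1 was at 13.7 and 19.3 CPM in Langerhans cell-like wells (-2.21 ± 1.02, adjusted p = 0.127, or 0.0185 with the mouse as a block). Cyp1b1 had no transcript in T cell-like wells and 2 in Langerhans cell-like wells, near the level a count of 0 allows.

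Gsta4 was near the limit of detection, with 28.0 transcripts in 13 wells and 5.00 at most in a well. Of these, 9.0 lay in 4 basal IFE-like wells and 9.0 in 3 committed IFE-like wells. It was found in 0 of 106 upper HF-like wells, with an exact binomial upper bound of 3.42%. No order of classes was detectable at this depth.

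Listed genes of the pathways were called in each keratinocyte class, where the backgrounds were 13.0% of all genes in upper HF-like, 8.23% in committed IFE-like and 11.8% in lower HF-like wells. No test compared the classes with each other. Of 15 phase I enzymes tested, 4 rose and 3 fell in upper HF-like wells, 4 rose and 1 fell in committed IFE-like wells and 2 fell in lower HF-like wells. Ephx3, an epoxide hydrolase of epidermal barrier lipids, passed the test in the first pair of classes and was at 92.8 to 252 CPM in upper HF-like, 32.7 to 75.6 CPM in committed IFE-like and 0 to 22.8 CPM in basal IFE-like wells, where 3 transcripts gave ratios of 39.3 (12.7 to 197) and 13.9 (4.32 to 71.1). Its call in committed IFE-like wells was lost with the Troy-EGFP mice alone (adjusted p = 0.351). Fmo5, a flavin-containing monooxygenase, rose in upper HF-like wells by a log2 fold change of 4.30 ± 0.52. Ephx1 and Adh7 fell there by 1.34 and 1.46 on the log2 scale, calls that were lost in 8 and 4 of 14 alternatives. Adh1, an alcohol dehydrogenase, had 1 transcript there, a ratio of basal to upper HF of 13.7 (2.28 to 557). In committed IFE-like wells Ephx1 fell by 2.73 ± 0.49 on the log2 scale (edgeR adjusted p = 0.000264). That call was lost in 1 of 14 alternatives, with the Troy-EGFP mice alone.

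Of 13 steroid and retinoid enzymes tested, 4 rose and 1 fell in upper HF-like wells, 3 rose in committed IFE-like wells and 0 were called in lower HF-like wells. Of those 13, 3 had an unadjusted p below 0.05 and DESeq2 called 1. In upper HF-like wells the largest rise was Cyp27a1, a mitochondrial sterol hydroxylase, by 4.06 ± 0.65 on the log2 scale, followed by Sult2b1, a cholesterol sulfotransferase, and Rdh12, a retinol dehydrogenase, by 3.20 and 2.69, while Hsd3b7 fell by 2.42. Sult2b1 and Rdh12 also rose in committed IFE-like wells, by 3.70 and 2.10. The calls of Sult2b1 and Hsd3b7 in upper HF-like wells were each lost in 1 alternative, and that of Rdh12 in committed IFE-like wells in 2 of 13. The calls of Cyp27a1, Rdh12, Ephx3 and Fmo5 in upper HF-like wells and of Sult2b1 in committed IFE-like wells held in all alternatives.

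Among 12 glutathione and phase II enzymes tested, 3 rose in upper HF-like and 2 in lower HF-like wells and none fell there. Gstm5 was at 174 to 1003 CPM in upper HF-like, 90.6 to 358 CPM in lower HF-like and 22.8 to 52.8 CPM in basal IFE-like wells, with log2 fold changes of 4.16 ± 0.40 and 2.55 ± 0.41 whose calls held in all 14 alternatives. Mgst1 rose in lower HF-like wells by 3.95 ± 0.70, in all 13 alternatives. In committed IFE-like wells Gstm2 fell by 1.74 on the log2 scale, a call lost in 4 of 14 alternatives, and Hpgds, a prostaglandin D synthase, had 67 transcripts against 2 in basal IFE-like wells, a ratio of 46.5 (12.4 to 392). In Langerhans cell-like wells Hpgds and Ltc4s, a leukotriene synthase, stood at 369 and 858 CPM, against 2.21 CPM each from 2 transcripts in basal IFE-like wells.

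Of 5 acyl-CoA synthetases tested, Acsl1 and Acsbg1 rose in committed IFE-like wells by 2.33 and 1.68, the first in all 14 alternatives and the second lost in 4 of 13, while Acsl5 rose in upper HF-like wells by 1.26, a call lost in 2 of 14. Slc27a3 fell by 1.94 in lower HF-like wells, a call lost in 4 of 14 alternatives, and had 1 transcript in upper HF-like wells, a ratio of basal to upper HF of 48.1 (8.45 to 1916). Of 10 receptors and regulators tested, Vdr, the vitamin D receptor, rose in upper and lower HF-like wells by 2.09 ± 0.35 and 1.88 ± 0.34, and Nr3c1, the glucocorticoid receptor, rose in lower HF-like wells by 1.42 ± 0.29. The calls of Vdr and Nr3c1 in lower HF-like wells were each lost in 1 of 14 alternatives, with the Troy-EGFP mice alone (adjusted p = 0.05003 and 0.0648). Ahr, the aryl hydrocarbon receptor, was at 70.8 to 239 CPM in basal IFE-like and 0 to 30.2 CPM in lower HF-like wells, a fall of 3.70 on the log2 scale whose call held in all 14 alternatives. In upper HF-like wells, Ahr was at 167 to 368 CPM (1.06 ± 0.35, adjusted p = 0.0356, a call lost in 6 alternatives). List medians in these 3 comparisons lay between -1.45 for acyl-CoA synthetases in lower HF-like wells and 0.74 for the same list in committed IFE-like wells, against -0.07 to 0.03 over all genes tested.

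The genes most like each enzyme over the 35 sums of a class and mouse, among 5528 candidates, were found by Spearman's correlation of log2 CPM, and are given as a description, since sums share mice, depth and class. Likeness here says nothing of shared function or control. Cyp1b1 was most like Vdr (0.88), Usp54 (0.85) and Krt17 (0.85). Cbr2 was most like Dynll2 (0.84), Ptrf (0.82) and Col7a1 (0.79), and Gstm1 most like Apoe (0.86), Igfbp4 (0.79) and Calu (0.78). Aldh3a1 was most like Glul (0.79), Apoe (0.79) and Frmd6 (0.78), and Acsl4 most like Gas7 (0.71), Endod1 (0.71) and Reep5 (0.69). Gsto1 was most like Rpl39 (0.86), a ribosomal protein gene, and Spry1 (0.84), and Akr1c18 most like Aplf (0.78), B230120H23Rik (0.70) and Jhdm1d (0.69).

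Within single wells the enzymes overlapped unequally. Of 129 wells with Acsl4, 61.2% also held Aldh3a1 and 52.7% Gstm1, and 10.9% held Cbr2. Of 231 wells with Cbr2, 40.3% held Aldh3a1, 38.1% Gsto1 and 6.06% Acsl4. Wells with more transcripts hold more genes of any kind, so these shares are a description.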

How the data were processed

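Bulk RNA of 3 sorted populations from each of 2 mice (CEL-Seq2) and single cells of 6 mice (SORT-seq) were measured. The submitters' processing notes name BWA 0.6.2-r126 and the builds mm10 and GRCm38, and for the bulk libraries also hg19, a human build whose use is not given in the sources used here. The bulk tables deposited by the authors hold raw read counts per gene, without normalisation. The plate tables deposited by the authors hold estimated transcript numbers per well (other unit), made from counts of distinct barcodes. All their values (100%, within 1e-06) turn back into whole barcodes with 4096 possible barcodes, although the labels state 4 bases. On each plate, spike-in rows (63 in all) and mitochondrial rows (33) were removed and wells of at least 1000 transcripts kept.

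Bulk counts were tested with the quasi-likelihood F test of edgeR 4.0.16 (limma 3.58.1, R 4.3.3) with TMM scaling, filterByExpr and Benjamini-Hochberg adjustment over all genes tested, at a threshold of 0.05. Wells were classed by the marker panel with the highest mean residual, at a score of at least 0.25 with 2 panel genes detected. This scoring rule was set after class sizes were seen, not the levels of the enzymes. Transcripts were summed per mouse and class (at least 10 wells, 5 for the sebocyte panel), rounded, and fitted in the same way with the experiment as a term and panel genes left out. Standard errors were derived from the fold change and its F statistic. Levels in wells are plain CPM, and class names in plots drop the ending "-like". Bulk replicate numbers mark the same mouse, so that the numbers pair the libraries. Deviations from the population means of same-numbered libraries correlated at 0.0859 (viable and EGFP+), 0.0900 (viable and EGFP-) and 0.0521 (EGFP+ and EGFP-), and the mouse as a block was an alternative. Others were DESeq2 1.42.0, its size factors (RLE), no filter on low counts, observed barcodes, wells of at least 2000 transcripts, sums of at least 5 wells, a clear lead of the best panel, Troy-EGFP mice alone, and each replicate left out. Scripts were tested on simulated data. Python 3.11.15, pandas 2.3.3, NumPy 2.4.6 and SciPy 1.17.1 were used.

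The members, pathway lists and tests were chosen with earlier results of these data known. Named besides the 8 members were, per list and comparison, at most 3 called genes in each direction with the largest absolute log2 fold change, and the 3 genes most like each member among genes with at least 100 transcripts. Some genes that this rule names are not reported here. Doublets were not called.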

Additional observations from a re-analysis of the deposited data

Results flagged for a closer look

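In 45 groups of 4 to 6 mice, a single mouse stood far from the others in 8, where chance flags about 1 in 20 groups, a rate that need not hold where most values are at 0. Akr1c18 was high in Troy-EGFP mouse 4 in basal IFE-like wells (26.5 CPM, with 0 to 7.03 in the others), in lower HF-like wells (52.1 CPM, with 0 to 8.98) and in T cell-like wells (91.1 CPM, with 0 in the 3 others). Gsto1 was high in Troy-EGFP mouse 2 in basal IFE-like wells (444 CPM, with 102 to 183) and in upper HF-like wells (310 CPM, with 30.0 to 110). Gstm1 in unassigned wells was high in traced mouse 2 (730 CPM, with 48.3 to 268), Gsta4 in unassigned wells in traced mouse 1 (37.0 CPM, with 0 to 8.29), and Cbr2 in T cell-like wells in traced mouse 2 (35.1 CPM from 1 transcript, with 0 in the 3 others).

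The 1195 wells below 1000 transcripts, left out of every comparison, held 331509 transcripts in all. They gave 25 transcripts of Cyp1b1, 16.0 of Akr1c18, 31.0 of Cbr2, 70.0 of Aldh3a1, 22.0 of Acsl4, 24.0 of Gstm1 and 42.0 of Gsto1. In edgeR, 0 of 20 tests of a difference in class folds between traced and Troy-EGFP mice passed the adjusted threshold, the lowest unadjusted p being 0.0673, and in none of 32 pairs did the mice of the 2 experiments all move in opposite directions.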

How the results depend on the processing

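Depth and mouse number limit these results: 2 mice stand behind each bulk population and the Langerhans and sebocyte-panel folds. Over the named pathway genes, 899 values under the alternatives kept direction and call, 153 lost the call and 0 reversed. Of the values of the enzymes, 684 kept direction and side of the threshold, 12 lost a call, 12 gained one, 9 untested values moved and 19 reversed. T cell-like wells had no value with wells of at least 2000 transcripts, Akr1c18 passed the filter in 7 alternatives of each of the 5 class comparisons, and adjusted p that DESeq2 gave as NA were left out. The cause of each change was not tested.

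DESeq2 called 136 genes for EGFP+ against EGFP- cells, 12 for EGFP+ against viable, 49 for EGFP- against viable and 62 for traced against Troy-EGFP mice, where edgeR called 328, 22, 83 and 17. Without the filter on low counts, 43, 133 and 312 were called in the last 3 of these. Sums of at least 5 wells, an alternative chosen after seeing the data, gave 34 for traced against Troy-EGFP mice. With the mouse as a block, the paired fit called 49 genes for EGFP+ against viable, 163 for EGFP- against viable and 182 for the sebocyte panel (89 without it). The Troy-EGFP mice alone gave 99 genes in committed IFE-like, 211 in upper HF-like, 227 in lower HF-like and 705 in T cell-like wells. Leaving out a replicate gave 131 to 751 genes for EGFP+ against EGFP-, 7 to 124 for EGFP+ against viable, 27 to 464 for EGFP- against viable, 220 to 609 for committed IFE-like, 405 to 873 for upper HF-like, 400 to 764 for lower HF-like, 1156 to 1773 for T cell-like, 430 to 1238 for Langerhans cell-like and 11 to 44 for sebocyte-panel wells. It gave 0 to 807 for traced against Troy-EGFP mice, with 0 without Troy-EGFP mouse 3 or either traced mouse, 4 without Troy-EGFP mouse 4 and 807 without Troy-EGFP mouse 2.

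All reversed log2 fold changes belonged to values with no call. Gsto1 in EGFP+ against EGFP- cells was 0.016 without the filter and -0.36 to 0.12 with a library left out, above 0 without the EGFP+ or the EGFP- library of mouse 2. With a library left out, Aldh3a1 in EGFP+ against viable cells ranged from -0.38 to 0.063 and Gstm1 in EGFP- against viable cells from -0.71 to 1.006. With the mouse as a block, Akr1c18 was -0.052 in committed IFE-like and -0.48 in Langerhans cell-like wells, and with a mouse left out it ranged from -0.070 to 0.57 and from -0.27 to 0.61, lowest without Troy-EGFP mouse 2. In lower HF-like wells Acsl4 was 0.070 with wells of at least 2000 transcripts and Gsto1 0.028 with the Troy-EGFP mice alone. Acsl4 in Langerhans cell-like wells was 0.12 with DESeq2, 0.54 with the block, 0.39 with wells of at least 2000 transcripts, 0.44 with the Troy-EGFP mice alone and -0.85 to 0.42 with a mouse left out. With a mouse left out, Cbr2 ranged from -0.28 to 0.26 in sebocyte-panel wells and from -0.13 to 0.92 in traced against Troy-EGFP mice.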

Other observations

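Outside the sebocyte panel, 4 wells with no assigned class held most of the remaining high Akr1c18, at 5.00, 5.00, 10.01 and 11.01 transcripts, in Troy-EGFP mouse 3 (2 wells), Troy-EGFP mouse 1 and traced mouse 2. The well of traced mouse 2 also held 30.1 Aldh3a1 transcripts, the most of any well. These wells were picked by their values, so the levels are a description.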
